A study of Mus musculus with 12 samples.

Results

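The genes described here take fatty acids into the liver cell, carry them into the mitochondrion or the peroxisome, and oxidise them there. They were named as 31 mouse genes, and a gene counted as measured where an Affymetrix probe set carried its symbol and no other. Of these, 30 had such a probe set, 1 each, out of 19937 genes measured in this way on the arrays, and Acsl1 is named only. All 30 were among the 17904 genes bright enough to be tested. No member passed that filter through 1 bright group alone, since even the dimmest, Pdk4, lay at or above the 54.5th percentile of its array in all 12 arrays. By textbook location, 19 members are mitochondrial, 8 are peroxisomal, and Cd36, Fabp1 and the pantetheinase Vnn1 belong to neither class. Of the enzymes that make or use ketone bodies, Bdh1 alone is a member.

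In the liver, long-chain fatty acids enter mitochondria as carnitine esters. The outer-membrane enzyme Cpt1a makes the ester, the carrier Slc25a20 moves it across the inner membrane, and Cpt2 turns it back into acyl-CoA. Acyl-CoA dehydrogenases, hydratases, dehydrogenases and thiolases then shorten the chain in turns, and the electron-transfer flavoprotein passes the electrons to the respiratory chain. Peroxisomes shorten very long and branched chains with enzymes of their own and hand the shortened products to mitochondria. Many of these genes are known targets of the fatty acid receptor PPARalpha, and fasting and glucocorticoids are both known to favour fatty acid oxidation in the liver.

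Liver RNA came from 12 male C57Bl/6 mice, 1 array per animal and 3 animals in each of 4 groups: Hdac6 knockout mice given dexamethasone, Hdac6 knockout mice given vehicle, wild-type mice given dexamethasone and wild-type mice given vehicle. Dexamethasone, a synthetic glucocorticoid, was injected intraperitoneally at 1 mg/kg over 3 weeks, and all animals were fed freely. The age of the mice, the source of the knockout allele and the hour of tissue collection are not given in the sources used here. Each value is the log2 of a probe set's intensity as deposited; a gap of 1 means a 2-fold difference, and levels of different genes are not compared because each probe set has its own brightness.

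Hdac6 itself lay between 3.62 and 4.40 in the 6 knockout arrays, against 5.86 to 6.43 in the 6 wild-type arrays, so the genotype labels held on every array. Hepatocyte markers (6 of 10 measured) averaged 12.5 to 12.7 on each array. Exocrine pancreas markers (14 of 17 measured) averaged 8.46 in knockout vehicle 3, 7.78 in wild-type dexamethasone 3, 9.79 in wild-type vehicle 1 and 9.60 in wild-type vehicle 2, against 3.02 to 3.45 in the other 8 arrays. These 4 arrays are called pancreas-positive below, and key results of the members are repeated with them left out. Only 1 wild-type vehicle array then remains, and the fit borrows its spread from the other groups. In whole tissue, fewer cells of a type and less RNA per cell cannot be told apart.

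Dexamethasone raised 4 of 30 members in knockout liver, where 4.38% of all genes were higher, and 8 of 30 in wild-type liver, where 4.57% were. Pex11a, Eci2, Cd36 and Cpt1a rose in both genotypes. The Cpt1a calls were less stable, lost in 10 of 21 alternatives in the knockout and in 3 of 21 in wild type. Several of the calls made in wild-type liver alone were also lost when single arrays were left out, as given below. Pex11a, which elongates and divides peroxisomes, made the largest change among the members in both: 2.77-fold in knockout and 3.16-fold in wild-type liver. Wild-type liver alone had calls for the other 3 carnitine shuttle genes (Slc25a20, Cpt2 and Crat) and the long-chain acyl-CoA dehydrogenase Acadl as higher, and for the peroxisomal genes Crot and Acaa1b as lower, although no difference between the genotypes passed the interaction test.

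In limma, with p-values adjusted over all 17904 genes, 4 of 30 members were higher and 0 lower with dexamethasone in knockout liver, where 4.38% of all genes were higher and 3.92% lower. In wild-type liver 8 of 30 were higher and 2 lower, where 4.57% of all genes were higher and 6.95% lower. An unadjusted p under 0.05 was reached by 7 of 30 members in the knockout, against 18.5% of all genes, and by 13 of 30 in wild type, against 23.6%. The values of the 3 dexamethasone and 3 vehicle animals did not overlap for 7 of 30 members in the knockout, against 24.3% of all genes in either direction. All 7 were higher, where 11.7% of all genes were apart and higher and 12.6% apart and lower. In wild type they did not overlap for 14 of 30 members, against 27.0% of all genes in either direction: 11 were higher, against 12.5% of all genes, and 3 were lower, against 14.5%. The knockout count over both directions lies close to its background.

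**Figure D1:**
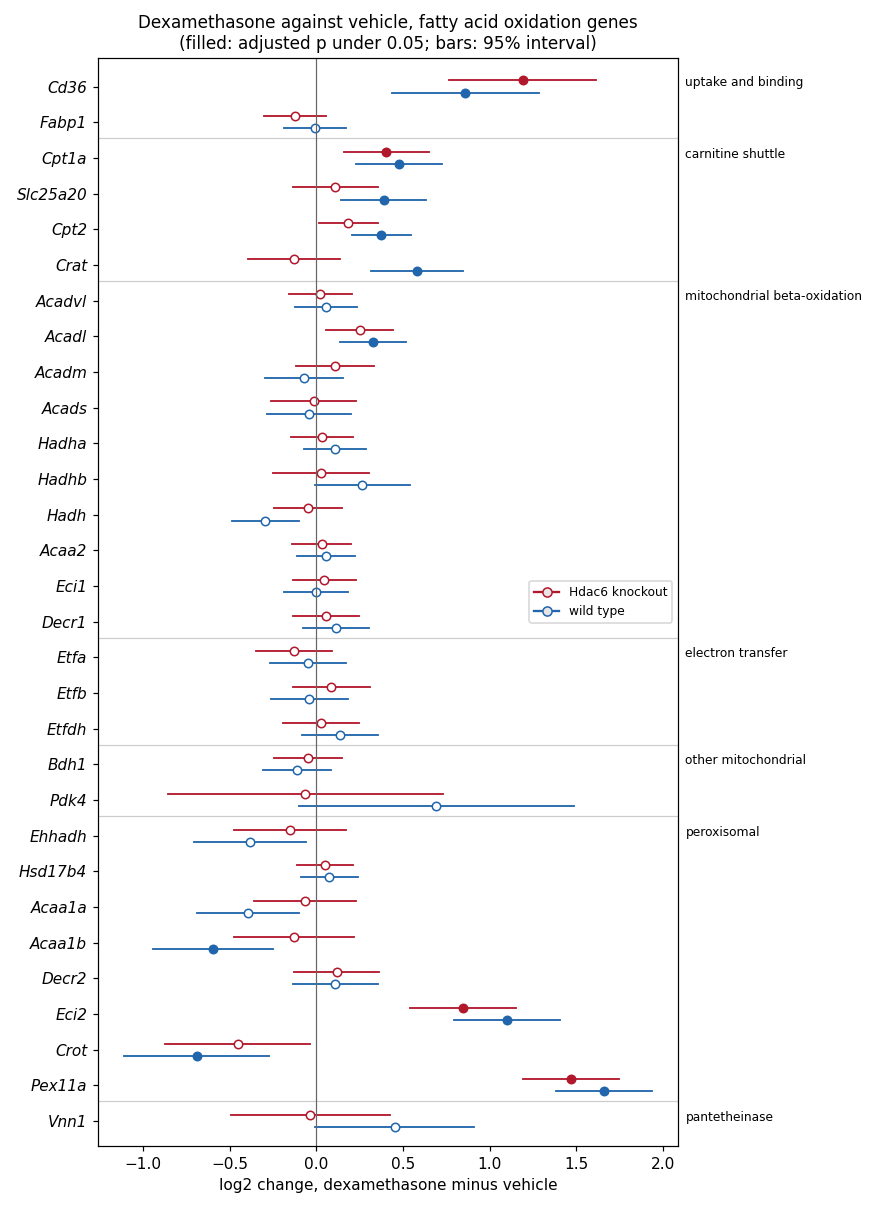
Log2 change with dexamethasone (horizontal axis, dexamethasone minus vehicle) of each of the 30 measured members, ordered by role, in knockout (red) and wild-type liver (blue). Points are limma estimates, bars are 95% intervals, and filled points have an adjusted p under 0.05. The filled points far to the right are Pex11a, Eci2 and Cd36, the 4 carnitine shuttle genes are all filled in wild type, and most mitochondrial beta-oxidation enzymes sit close to 0 in both genotypes.

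The 4 genes that rose in both genotypes are shown with their promoters, because they are the members called in both. Each window runs from upstream of 1 RefSeq start site of the gene into the first bases of that transcript (GRCm38.p6), 5′ to 3′ on the strand of the gene. For Cd36, Eci2 and Cpt1a the window lies inside the RefSeq span of the gene, and other start sites were not searched. Capitals mark the letters AGGTCA or their reverse complement TGACCT, the half-site of nuclear receptors such as PPARalpha.
Pex11a, chr7:79743082-79743381 (minus strand): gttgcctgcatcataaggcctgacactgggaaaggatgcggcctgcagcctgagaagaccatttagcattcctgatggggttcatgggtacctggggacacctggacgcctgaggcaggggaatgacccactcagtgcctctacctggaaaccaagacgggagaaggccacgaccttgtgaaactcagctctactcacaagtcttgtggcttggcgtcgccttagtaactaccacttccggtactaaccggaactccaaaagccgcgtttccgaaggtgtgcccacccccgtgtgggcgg
Eci2, chr13:34994095-34994394 (minus strand): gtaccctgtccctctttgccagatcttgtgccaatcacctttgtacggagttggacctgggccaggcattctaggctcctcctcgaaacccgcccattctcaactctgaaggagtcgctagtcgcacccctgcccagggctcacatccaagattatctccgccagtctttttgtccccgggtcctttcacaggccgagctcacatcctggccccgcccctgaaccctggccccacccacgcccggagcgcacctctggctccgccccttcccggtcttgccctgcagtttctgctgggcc
Cd36, chr5:17835847-17836146 (minus strand): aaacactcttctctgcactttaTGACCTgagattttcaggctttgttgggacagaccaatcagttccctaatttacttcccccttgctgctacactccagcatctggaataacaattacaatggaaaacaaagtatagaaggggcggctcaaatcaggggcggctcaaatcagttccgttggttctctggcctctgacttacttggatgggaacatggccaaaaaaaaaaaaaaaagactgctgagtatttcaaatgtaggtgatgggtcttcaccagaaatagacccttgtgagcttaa
Cpt1a, chr19:3323051-3323350 (plus strand): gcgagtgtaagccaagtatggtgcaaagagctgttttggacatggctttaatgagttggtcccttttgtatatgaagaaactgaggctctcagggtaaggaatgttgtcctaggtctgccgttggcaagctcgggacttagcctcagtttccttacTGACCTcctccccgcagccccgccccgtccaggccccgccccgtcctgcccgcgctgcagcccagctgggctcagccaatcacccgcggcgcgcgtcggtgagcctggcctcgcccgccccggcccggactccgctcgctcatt

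Cd36 and Cpt1a hold 1 such half-site each, and the windows of Pex11a and Eci2 hold 0. Among the 25 members with a promoter in the RefSeq table, 5 hold the half-site on either strand (Acadm, Acadvl, Cd36, Cpt1a and Fabp1), which is 20%, against 16.3% of all 32851 promoters of the same length. A looser direct repeat, AGGNCANAGGNCA, in which N is any base and which can overlap the half-site, occurs in 1 member, Fabp1, against 0.381% of all promoters. The Fabp1 match reads TGACCTATGGCCT at chr6:71199812-71199824 on the plus strand, starting at position -67 from the start site, and Fabp1 showed no called change in any comparison. The glucocorticoid response element pattern GNACANNNTGTNC was searched on both strands too and occurs in 0 of 25 members and in 0.475% of all promoters. These are letter matches in short windows and say nothing about binding. The windows of the members hold a median of 15 CG dinucleotides, against 7 over all promoters, with 3 in Cd36 and 22 in Cpt1a. The 32851 promoters were not limited to the genes tested on the arrays, so none of these gaps is shown to be particular to the members.

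Pex11a had log2 values of 9.36, 9.55 and 9.24 in knockout dexamethasone livers, against 7.92, 8.05 and 7.78 in knockout vehicle livers. In wild type it had 9.36, 9.39 and 9.60 with dexamethasone and 7.54, 7.89 and 7.95 with vehicle. All 6 dexamethasone animals lay more than 1 log2 unit above all 6 vehicle animals, and the genotypes were interleaved within each treatment. The log2 change was 1.47 ± 0.13 (SE, n = 3 animals a group; limma adjusted p = 8.87e-06) in the knockout and 1.66 ± 0.13 (adjusted p = 3.39e-06) in wild type. Without the pancreas-positive arrays it was 1.40 and 1.43, and both calls were kept in all 21 alternatives run.

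Eci2 isomerises double bonds of unsaturated fatty acids and is known in peroxisomes and mitochondria. It reached 9.83, 9.85 and 9.67 in knockout dexamethasone livers, against 8.80, 9.29 and 8.72 in knockout vehicle livers, and 10.00, 9.75 and 10.00 in wild-type dexamethasone livers, against 8.68, 8.98 and 8.78 in wild-type vehicle livers. The treatments again did not overlap in either genotype, and knockout vehicle 2 was the highest vehicle animal. The change was 0.85 ± 0.14 (1.80-fold, limma adjusted p = 0.00177) in the knockout and 1.10 ± 0.14 (2.15-fold, adjusted p = 0.000222) in wild type. The related mitochondrial isomerase Eci1 stood at 0.05 in the knockout and 0.00 in wild type, with 95% intervals of -0.14 to 0.23 and -0.18 to 0.18.

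Cd36, the scavenger receptor that helps fatty acids enter cells, had 8.80, 8.66 and 8.74 in knockout dexamethasone livers, against 7.56, 7.26 and 7.81 in knockout vehicle livers. In wild type it had 8.54, 8.88 and 8.45 with dexamethasone, against 7.91, 8.11 and 7.27 with vehicle. No dexamethasone animal fell among the vehicle animals, and the knockout dexamethasone animals were the tightest group (SD 0.07, against 0.44 in wild-type vehicle). The change was 1.19 ± 0.20 in the knockout (2.28-fold, limma adjusted p = 0.00157) and 0.86 ± 0.20 in wild type (1.81-fold, adjusted p = 0.0116).

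Within the vehicle groups, Cd36 was higher in the pancreas-positive arrays: knockout vehicle 3 was the highest of its group, and wild-type vehicle 1 and 2 lay above wild-type vehicle 3. Without those 4 arrays the change was 1.32 in the knockout and 1.44 in wild type, and without wild-type dexamethasone 2 alone the wild-type call was lost (0.73, adjusted p = 0.0585). Cd36 is also made by fat, endothelial cells and macrophages. The adipocyte list (7 of 8 measured) averaged 3.02 to 3.29 on every array, close to the array medians of 3.13 to 3.24. Endothelial markers averaged 6.86 to 7.06 in knockout dexamethasone livers, 6.85 to 6.96 in knockout vehicle livers, 6.66 to 6.80 in wild-type dexamethasone livers and 6.94 to 7.24 in wild-type vehicle livers. Of 7 endothelial markers, 1 was higher and 3 lower with dexamethasone in the knockout, and 1 was higher and 4 lower in wild type. The part of these cells in the Cd36 values was not tested. Fabp1, the abundant fatty acid carrier of the liver cytosol, had a change of -0.12 (95% interval -0.30 to 0.06) in the knockout and -0.01 (-0.19 to 0.17) in wild type.

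**Figure D2:**
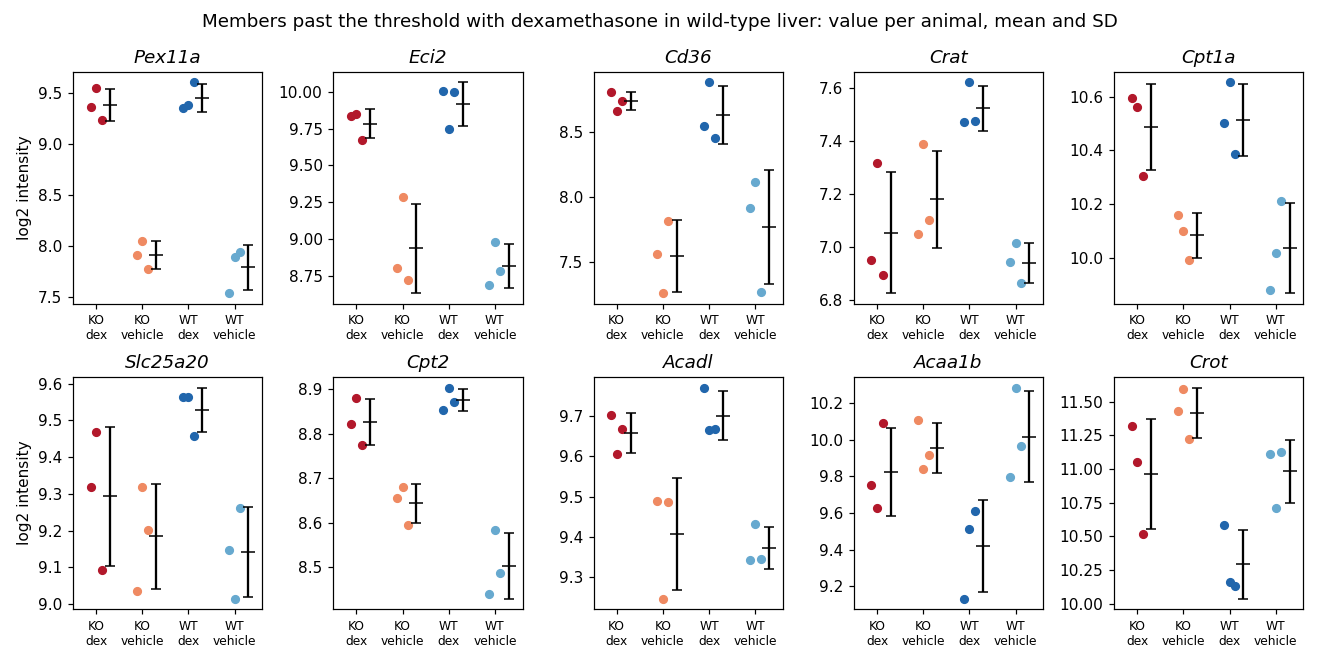
Log2 intensity (vertical axis) in each animal of the 10 members past the threshold with dexamethasone in wild-type liver, with mean and SD beside the 3 points of a group. Pex11a, Eci2, Cd36, Cpt1a, Cpt2 and Acadl are higher in all dexamethasone animals than in all vehicle animals of the same genotype. Crat has its 3 highest points in wild-type dexamethasone livers.

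Of the genes classed here as carnitine shuttle, which include Crat, 4 of 4 were called higher in wild-type liver, where 4.57% of all genes were. Their median log2 change was 0.43 (all genes 0.01). All 4 of these calls were lost without the pancreas-positive arrays, at limma adjusted p-values of 0.141 (Crat) to 0.521 (Slc25a20). In the knockout 1 of 4 was called higher, where 4.38% of all genes were, with a median change of 0.15 (all genes -0.01). Cpt1a, which catalyses the rate-controlling step of long-chain entry, had 10.59, 10.56 and 10.30 in knockout dexamethasone livers and 10.16, 10.10 and 9.99 in knockout vehicle livers. In wild type its values were 10.50, 10.65 and 10.39 with dexamethasone and 9.88, 10.02 and 10.21 with vehicle. The dexamethasone animals lay above the vehicle animals in both genotypes. Cpt1a rose by 0.40 ± 0.11 in the knockout (1.32-fold, limma adjusted p = 0.0458) and by 0.48 ± 0.11 in wild type (1.39-fold, adjusted p = 0.0154). The knockout call was lost in 10 of 21 alternatives (adjusted p up to 0.159), among them those without knockout dexamethasone 1 or 2, any 1 knockout vehicle animal, wild-type dexamethasone 1 or wild-type vehicle 2. The wild-type call was lost without wild-type dexamethasone 2 or wild-type vehicle 1 and without the pancreas-positive arrays (0.36 to 0.41).

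Cpt2 was among the steadiest members, with a residual SD of 0.05. It had 8.82, 8.88 and 8.78 in knockout dexamethasone livers against 8.65, 8.68 and 8.59 in knockout vehicle livers, and 8.85, 8.90 and 8.87 in wild-type dexamethasone livers against 8.44, 8.58 and 8.49 in wild-type vehicle livers. Treatments did not overlap in either genotype, but only the wild-type change of 0.37 ± 0.08 passed (limma adjusted p = 0.00711; 0.39 and 0.170 without the pancreas-positive arrays), and the knockout change of 0.18 ± 0.08 did not (adjusted p = 0.222). Slc25a20 had 9.32, 9.47 and 9.09 in knockout dexamethasone livers, overlapping 9.03, 9.32 and 9.20 in knockout vehicle livers. Its wild-type values were 9.56, 9.56 and 9.46 with dexamethasone and 9.15, 9.01 and 9.26 with vehicle, which do not overlap. The wild-type rise was 0.39 ± 0.11 (limma adjusted p = 0.0419) and was lost in 10 of 21 alternatives, including those without any 1 wild-type dexamethasone animal, wild-type vehicle 1 or 2, knockout dexamethasone 1 or knockout vehicle 3. The knockout change was 0.11 (95% interval -0.14 to 0.35).

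Crat, which exchanges acetyl groups between CoA and carnitine in mitochondria and peroxisomes, had the smallest p of the members for a difference between the responses of the genotypes. It had 6.95, 7.31 and 6.89 in knockout dexamethasone livers, against 7.05, 7.39 and 7.10 in knockout vehicle livers. Wild-type livers had 7.47, 7.62 and 7.47 with dexamethasone, against 6.94, 7.01 and 6.86 with vehicle. The 3 wild-type dexamethasone animals lay above the other 9 animals, and the knockout treatments overlapped. Crat rose by 0.58 ± 0.12 in wild type (limma adjusted p = 0.00746; 0.68 and 0.141 without the pancreas-positive arrays) and stood at -0.13 ± 0.12 in the knockout. The difference of the changes, knockout minus wild type, was -0.71 ± 0.17 (unadjusted p = 0.0013), which does not pass after adjustment over all genes (limma adjusted p = 0.520).

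The mitochondrial enzymes downstream of the shuttle changed little. Of 10 beta-oxidation enzymes, 0 were called in the knockout (1 with an unadjusted p under 0.05 in limma), with changes of -0.05 to 0.25. In wild type, Acadl was the 1 of 10 that was called. Acadl had 9.70, 9.60 and 9.67 in knockout dexamethasone livers against 9.49, 9.25 and 9.49 in knockout vehicle livers, and 9.77, 9.66 and 9.67 in wild-type dexamethasone livers against 9.34, 9.43 and 9.34 in wild-type vehicle livers. The treatments did not overlap in either genotype. The change was 0.25 ± 0.09 in the knockout (limma adjusted p = 0.120) and 0.33 ± 0.09 in wild type (adjusted p = 0.0299), and the wild-type call was lost in 8 of 21 alternatives, including those without any 1 wild-type dexamethasone animal or wild-type vehicle 1 or 3.

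The other acyl-CoA dehydrogenases, Acadvl for very long, Acadm for medium and Acads for short chains, had wild-type changes of 0.06, -0.07 and -0.04. Both subunits of the trifunctional protein, which carries out the last steps on long chains, had positive changes: 0.03 for Hadha and 0.03 for Hadhb in the knockout, and 0.11 and 0.27 in wild type, none of them called. Hadh, the dehydrogenase of short hydroxyacyl-CoAs, ran the other way in wild type. Its wild-type values were 10.13, 10.12 and 10.26 with dexamethasone, all under 10.35, 10.61 and 10.43 with vehicle, a change of -0.29 ± 0.09 just outside the threshold (limma adjusted p = 0.0537), which it passed in 4 of 21 alternatives, 1 of them without wild-type vehicle 1. The knockout change of Hadh was -0.05 (95% interval -0.24 to 0.15).

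Electron transfer and ketone body genes gave 0 calls in either genotype (0 of 3 and 0 of 1, also at an unadjusted p under 0.05 in limma). The flavoprotein subunits Etfa and Etfb and the dehydrogenase Etfdh had changes of -0.13 to 0.09 in the knockout and -0.05 to 0.14 in wild type. Bdh1, which interconverts acetoacetate and beta-hydroxybutyrate, changed by -0.05 in the knockout and -0.11 in wild type, with 95% intervals of -0.25 to 0.15 and -0.31 to 0.09.

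Pdk4, the kinase that shuts pyruvate dehydrogenase when fat is burned, was the noisiest member. Its residual SD of 0.56 lay at the 99.4th percentile of all genes tested. It had 5.09, 4.54 and 4.04 in knockout dexamethasone livers against 5.74, 4.08 and 4.04 in knockout vehicle livers, and 4.44, 4.34 and 4.13 in wild-type dexamethasone livers against 3.80, 3.59 and 3.44 in wild-type vehicle livers. Wild-type treatments did not overlap, and knockout vehicle 1 stood above all other animals. The wild-type vehicle values were close to the array medians of 3.13 to 3.24, so they are not shown to lie above background. The wild-type change of 0.69 ± 0.37 missed the threshold (limma adjusted p = 0.287). It passed when the spread came from wild-type arrays alone (adjusted p = 0.00979) or without knockout vehicle 1 (adjusted p = 0.0495).

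With all arrays, peroxisomal members had calls in both directions in wild-type liver, 2 higher and 2 lower of 8. Of all genes, 4.57% were higher and 6.95% lower. Besides Pex11a and Eci2, which rose, Crot and Acaa1b fell. Crot makes carnitine esters of the medium chains that peroxisomes release. It had 11.32, 11.05 and 10.52 in knockout dexamethasone livers, against 11.43, 11.59 and 11.22 in knockout vehicle livers, and 10.58, 10.16 and 10.13 in wild-type dexamethasone livers, against 11.11, 10.71 and 11.12 in wild-type vehicle livers. The knockout treatments overlapped through 1 animal and the wild-type treatments did not. Crot fell by 0.69 in wild type (SE 0.19, limma adjusted p = 0.0347) and stood at -0.45 ± 0.19 in the knockout (adjusted p = 0.216).

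Acaa1b, a peroxisomal thiolase, had 9.75, 9.62 and 10.09 in knockout dexamethasone livers, against 10.11, 9.84 and 9.92 in knockout vehicle livers. Wild-type values were 9.13, 9.51 and 9.61 with dexamethasone, against 9.79, 10.28 and 9.97 with vehicle, without overlap. It fell by 0.60 in wild type (SE 0.16, limma adjusted p = 0.0286) and stood at -0.13 ± 0.16 in the knockout (adjusted p = 0.785). Acaa1a, its close copy, had a wild-type change of -0.39 ± 0.14 that did not pass (adjusted p = 0.0874), and because both genes are near-identical, their probe sets may share signal and the split between them is uncertain. Without the pancreas-positive arrays neither call remained. The wild-type call of Crot was also lost without wild-type dexamethasone 2 or 3 or wild-type vehicle 1 or 3, and that of Acaa1b without wild-type dexamethasone 1 or 2 or wild-type vehicle 2 or 3, at changes of -0.84 to -0.61 and -0.71 to -0.45 over single left-out arrays.

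The remaining peroxisomal enzymes were not called. Ehhadh, the bifunctional enzyme of the inducible pathway, stood at -0.15 ± 0.15 in the knockout and -0.38 ± 0.15 in wild type (limma adjusted p = 0.703 and 0.129), and at -0.12 in wild type without the pancreas-positive arrays. Hsd17b4, the bifunctional enzyme for branched chains and bile acid precursors, was the steadiest member, with a residual SD of 0.04 and changes of 0.05 in the knockout and 0.07 in wild type. Decr2, a reductase for unsaturated chains, had 0.12 in the knockout and 0.11 in wild type, and its mitochondrial counterpart Decr1 had 0.06 in the knockout and 0.11 in wild type.

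Set side by side, the 19 mitochondrial members had a median log2 change with dexamethasone of 0.03 in the knockout and 0.11 in wild type, and the 8 peroxisomal members had -0.01 in the knockout and -0.15 in wild type. The medians over all genes tested were -0.01 in the knockout and 0.01 in wild type. Peroxisomal changes spread more widely, from -0.45 to 1.47 in the knockout and from -0.69 to 1.66 in wild type, than mitochondrial ones, from -0.13 to 0.40 and from -0.29 to 0.69. The median absolute change in wild type was 0.49 for peroxisomal and 0.11 for mitochondrial members, against 0.13 over all genes, and in the knockout it was 0.14 and 0.06, against 0.11. No test was made of these medians, since the members are not replicates. Peroxisomal members were also measured less precisely. In either genotype, the median half-width of the limma intervals was 0.30 for peroxisomal and 0.22 for mitochondrial members, against 0.25 over all genes. Absolute changes include noise, and the part of noise in the wider peroxisomal spread was not tested.

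**Figure D3:**
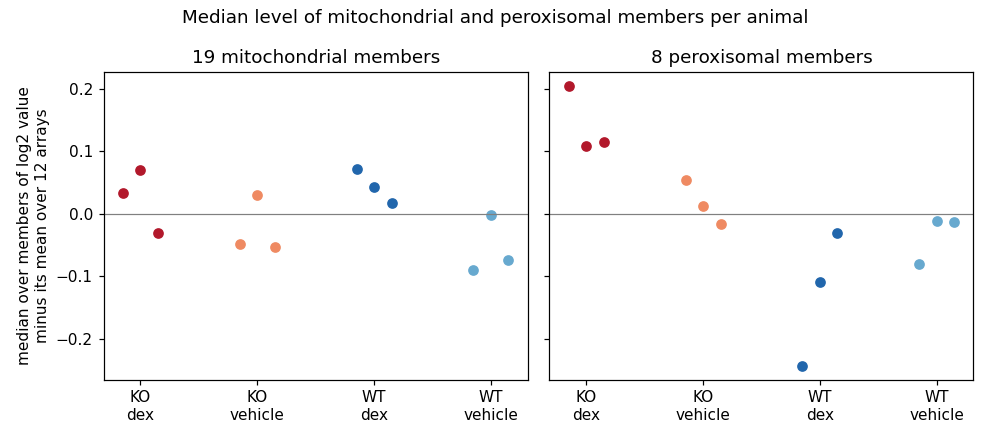
Median over the 19 mitochondrial (left) and 8 peroxisomal members (right) of each member's log2 value minus its mean over 12 arrays (vertical axis), 1 point per animal. Peroxisomal medians were 0.11 to 0.20 in knockout dexamethasone livers and -0.24 to -0.03 in wild-type dexamethasone livers, with the vehicle groups between them except for wild-type vehicle 1 at -0.08. A median of levels per animal is another measure than the median of the members' changes, which was -0.01 for peroxisomal members in the knockout.

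Averaged over both genotypes, dexamethasone raised 7 of 30 members and lowered 2, where 7.29% of all genes were higher and 9.94% lower. An unadjusted p under 0.05 was reached by 13 of 30, against 27.6% of all genes. The 7 called higher were Pex11a (1.56), Cd36 (1.02), Eci2 (0.97), Cpt1a (0.44), Acadl (0.29), Cpt2 (0.28) and Slc25a20 (0.25), and the 2 called lower were Crot (-0.57) and Acaa1b (-0.36). Their limma adjusted p-values ran from 8.50e-08 for Pex11a to 0.0491 for Slc25a20. Slc25a20 and Acaa1b lost these calls in 13 and 10 of 20 alternatives, among them several that left out 1 array of either genotype. Crat, at 0.23, was not called in the average (adjusted p = 0.0995).

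Without the 4 pancreas-positive arrays, 3 members kept their calls in the average, Pex11a (1.41), Cd36 (1.38) and Eci2 (0.92), and the same 3 kept theirs in each genotype. In wild type Vnn1 joined them (0.97, against 0.45 with all arrays; limma adjusted p = 0.0326), resting on wild-type vehicle 3 as the 1 vehicle animal left. The other members called with all arrays kept their direction, among them Cpt2 at 0.39, Crat at 0.68 and Crot at -0.75 in wild type. Kupffer cell markers moved with dexamethasone in wild type as well: 1 of 10 was higher and 0 were lower in the knockout, where the list averaged 6.56 to 7.40 with dexamethasone and 6.55 to 6.94 with vehicle. In wild type 1 of 10 was higher and 7 were lower, and the list averaged 5.87 to 6.32 with dexamethasone and 6.66 to 7.47 with vehicle. Skeletal muscle markers averaged 4.63 and 4.23 in wild-type vehicle 1 and 2, against 3.22 to 3.66 elsewhere. The part of these cells in the wild-type calls was not tested.

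Genes of the same pathway outside the 30 were also read, as 44 further enzymes, carriers and peroxisome proteins, of which 37 were measured, and 20 regulators, of which 19 were measured. Among the 37, dexamethasone gave 4 higher and 0 lower in the knockout, where 4.38% of all genes were higher and 3.92% lower. In wild type it gave 4 higher and 1 lower, where 4.57% of all genes were higher and 6.95% lower. The average gave 4 higher and 3 lower of 37, where 7.29% of all genes were higher and 9.94% lower, so the lower count lies near its background. The median change was 0.02 in the knockout and 0.01 in wild type. For these further genes and the regulators, results without the pancreas-positive arrays or under the other alternatives were not read.

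Oxct1, the enzyme that lets tissues use ketone bodies and that hepatocytes are known to lack, made the largest change of the 37. It had 5.13, 6.29 and 5.82 in knockout dexamethasone livers against 3.50, 3.09 and 3.55 in knockout vehicle livers, and 6.07, 6.20 and 5.09 in wild-type dexamethasone livers against 3.95, 3.81 and 3.63 in wild-type vehicle livers. Every dexamethasone animal lay above every vehicle animal, and the vehicle values were close to the array medians, so they are not shown to lie above background and no fold is given. On the log2 intensity scale Oxct1 rose by 2.37 ± 0.29 in the knockout (limma adjusted p = 0.000187) and by 1.99 ± 0.29 in wild type (adjusted p = 0.000671).

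Slc22a5, the plasma membrane carnitine transporter, rose by 0.78 ± 0.22 in the knockout and 0.97 ± 0.22 in wild type (limma adjusted p = 0.0434 and 0.0106). It had 7.03, 6.61 and 6.01 in knockout dexamethasone livers against 5.90, 5.86 and 5.56 in knockout vehicle livers, and 6.32, 6.54 and 6.62 in wild-type dexamethasone livers against 5.25, 5.48 and 5.84 in wild-type vehicle livers. Treatments did not overlap in either genotype. The peroxisomal membrane protein Pxmp4 rose by 0.65 in the knockout and 0.71 in wild type, and Amacr, a racemase for branched acyl-CoAs, by 0.51 in the knockout and 0.54 in wild type (SE 0.13 and 0.12 in both genotypes). Abcd2, a peroxisomal importer of very-long-chain acyl-CoAs, fell by 1.26 in wild type (SE 0.23, adjusted p = 0.00287) and stood at -0.54 ± 0.23 in the knockout. Hacl1, a lyase of branched-chain oxidation, was called in the average alone, at -0.42 ± 0.11 (adjusted p = 0.0204). As among the members, the called peroxisomal genes of this list went in both directions.

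Of the 19 regulators, 5 were higher in limma in the knockout, 3 in wild type and 6 in the average. Of all genes, 4.38% were higher in the knockout, 4.57% in wild type and 7.29% in the average. In each of these comparisons 0 of 19 were lower. Of all genes, 3.92% were lower in the knockout, 6.95% in wild type and 9.94% in the average, so the lower count lies near its background. Lpin1, a phosphatidate phosphatase and coactivator, made the largest change, 3.68 ± 0.17 in the knockout and 3.27 ± 0.17 in wild type. Foxo1, a fasting transcription factor, rose by 1.17 in the knockout and 1.24 in wild type, and the coactivator Ppargc1a by 1.08 in the knockout and 1.09 in wild type. Klf15 (0.53), Esrra (0.48) and Hnf4a (0.39) were the other 3 called in the average. For Klf15 the knockout values were 8.97, 8.85 and 8.74 with dexamethasone and 8.26, 7.69 and 8.06 with vehicle, without overlap. Its wild-type values overlapped, at 8.79, 8.63 and 8.89 with dexamethasone and 8.45, 8.67 and 8.55 with vehicle. The interaction was called for 0 of 19 regulators. Ppara, which encodes PPARalpha, was not called, with 0.19 in the knockout and 0.09 in wild type (95% intervals -0.20 to 0.57 and -0.30 to 0.47).

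**Figure D4:**
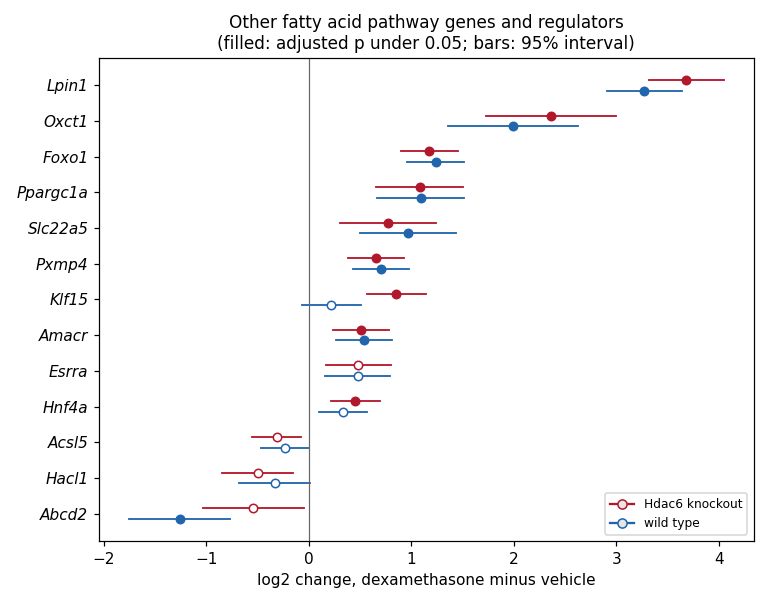
Log2 change with dexamethasone (horizontal axis, dexamethasone minus vehicle) of the 13 further pathway genes and regulators that passed the threshold in the average of both genotypes, in knockout (red) and wild-type liver (blue), with 95% intervals and filled points where the adjusted p is under 0.05. Lpin1 and Oxct1 lie farthest to the right and Abcd2 farthest to the left.

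Loss of Hdac6 changed no member past the threshold. In limma, 0 of 30 members were called under dexamethasone, where 0.0279% of all genes were called, and 0 under vehicle, where 0.101% were. The average over treatments also gave 0 calls, against 0.0503% of all genes. An unadjusted p under 0.05 was reached by 4 of 30 members in each of these 3 comparisons, against 8.75% of all genes under dexamethasone, 7.19% under vehicle and 10.0% in the average. Knockout and wild-type animals did not overlap for 3 of 30 members under dexamethasone, against 14.0% of all genes in either direction. Of these 2 were higher, against 6.9% of all genes, and 1 lower, against 7.07%. Under vehicle they did not overlap for 9 of 30, against 11.8% of all genes in either direction. Of these 8 were higher, against 5.8% of all genes, and 1 lower, against 6.04%. The pancreas-positive arrays are spread unevenly over this comparison (wild-type vehicle 1 and 2 and knockout vehicle 3), and their part in these counts was not tested. The median change over the 30 was 0.02 under dexamethasone and 0.055 under vehicle.

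**Figure D5:**
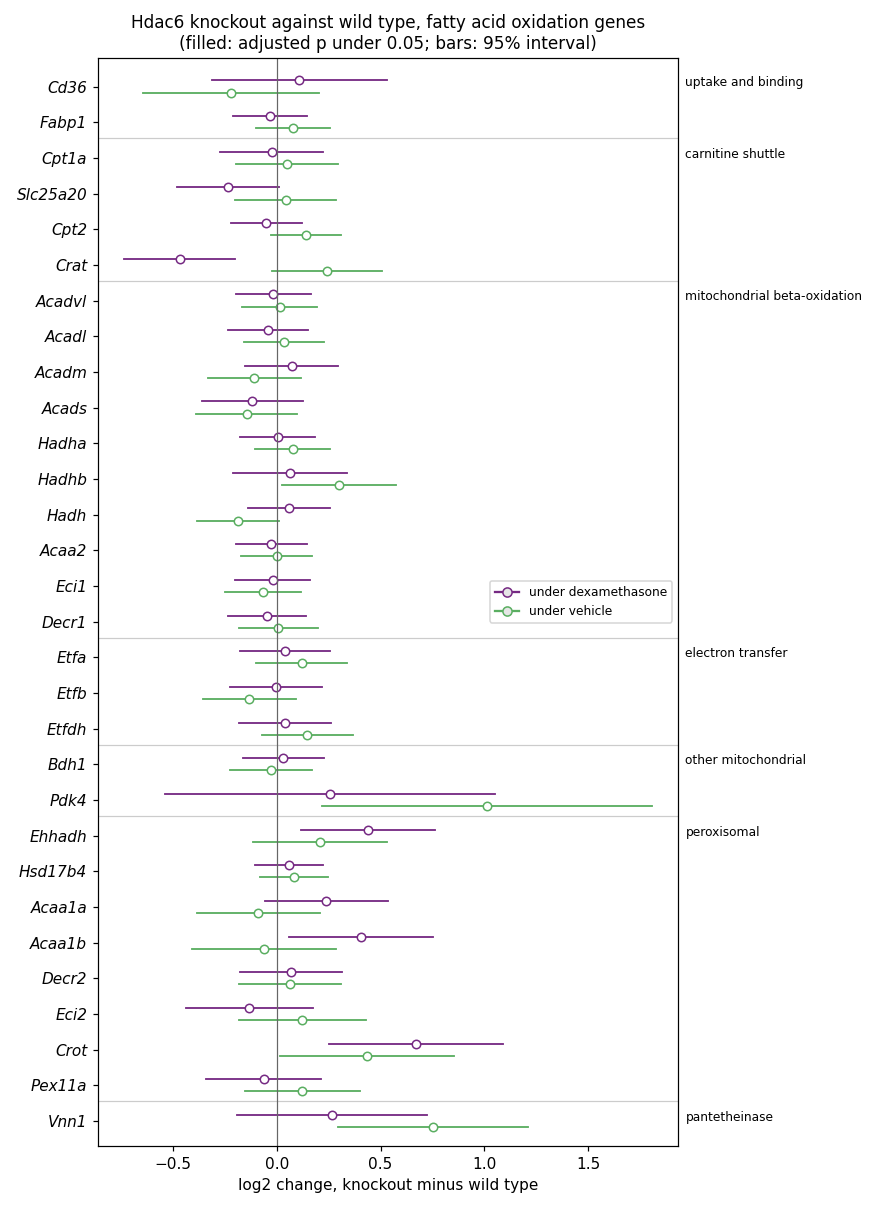
Log2 change with loss of Hdac6 (horizontal axis, knockout minus wild type) of each of the 30 measured members under dexamethasone (purple) and vehicle (green), with 95% intervals. Every point is open because 0 members passed the adjusted threshold, and the points farthest from 0 are Crot and Crat under dexamethasone and Pdk4 and Vnn1 under vehicle.

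The members with the smallest unadjusted p between genotypes were Crat, Crot, Ehhadh and Acaa1b under dexamethasone and Vnn1, Pdk4, Hadhb and Crot under vehicle. Crot had knockout minus wild-type differences of 0.67 ± 0.19 under dexamethasone (limma adjusted p = 0.342) and 0.43 ± 0.19 under vehicle (adjusted p = 0.686), and of 0.55 ± 0.14 in the average, where its adjusted p of 0.204 was the lowest of the 30. Without knockout dexamethasone 3, the lowest of its group, the difference under dexamethasone was 0.89, and without knockout dexamethasone 1, the highest, it was 0.49; neither was called. Under dexamethasone Ehhadh had 9.63, 9.20 and 9.28 in knockout livers and 8.82, 9.08 and 8.90 in wild-type livers, without overlap, a difference of 0.44 ± 0.15 (adjusted p = 0.424). Crat differed by -0.47 ± 0.12 there (adjusted p = 0.283).

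Vnn1, an enzyme that frees pantothenate from pantetheine at the cell surface and a known PPARalpha target, had 7.78, 8.05 and 7.35 in knockout vehicle livers and 7.21, 7.27 and 6.43 in wild-type vehicle livers. The groups did not overlap, and wild-type vehicle 3 was the lowest of all 12 animals. The difference was 0.75 ± 0.21 (limma adjusted p = 0.437), 0.48 without wild-type vehicle 3, and 1.48 (adjusted p = 0.0907) without the pancreas-positive arrays, when wild-type vehicle 3 alone stands for its group. With dexamethasone the values overlapped, at 7.74, 7.54 and 7.79 in knockout livers and 7.22, 7.58 and 7.47 in wild-type livers. Pdk4 under vehicle differed by 1.01 ± 0.37 (limma adjusted p = 0.592), and by 0.45 without knockout vehicle 1. Its wild-type vehicle values are not shown to lie above background.

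The interaction, the knockout change with dexamethasone minus the wild-type change, was called for 0 of 30 members in limma, as for 0.0% of all genes. An unadjusted p under 0.05 was reached by 1 member, Crat, and by 1109 of the 17904 genes (6.19%). The median interaction was -0.07 over the mitochondrial and 0.12 over the peroxisomal members, against 0.00 over all genes. For the 4 genes that rose in both genotypes it was -0.19 (Pex11a), -0.25 (Eci2), 0.33 (Cd36) and -0.07 (Cpt1a), with 95% intervals of -0.58 to 0.20, -0.69 to 0.18, -0.27 to 0.93 and -0.42 to 0.28. Without the pancreas-positive arrays the sign turned for Cd36 (-0.12), and the values of Pex11a and Eci2 were -0.02 and -0.35. These intervals do not show that the responses were equal. The calls made in wild type and missed in the knockout are therefore not shown to differ between the genotypes.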

How the data were processed

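RNA from 12 mouse livers was hybridised to Affymetrix whole-transcript arrays, 3 animals in each of 4 groups taken from the sample titles. The deposited values are log2 intensities of 34760 probe sets. Per the submitters' processing notes, the authors worked in R 2.10.0 and used affy; background correction and summarisation are not given in the sources used here. The sorted values of the arrays differ from their mean by at most 0.215, so a normalisation between arrays had been applied. Probe sets with 1 symbol in the platform annotation (21640, 1321 with several, 11799 with none) stood for 19937 genes, by the highest mean where a gene had several.

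Genes above the 20th percentile of an array in at least 3 arrays (17904) were fitted with limma 3.58.1 in R 4.3.3, with 4 group means over 12 arrays. The p-values were adjusted by Benjamini-Hochberg over all genes of each of 7 comparisons, two-sided, with a threshold of 0.05. The number of arrays limits the precision, and the fit was tested on simulated data. All 31 members are named, and of the other lists the 6 with the smallest p in the averaged effect and the called regulators. Members and lists were chosen with earlier results of these data known. Promoters came from RefSeq (GRCm38.p6). Alternatives were the filter, the scaling, the probe set rule, the variance model, the arrays fitted, a replicate block and leaving out arrays.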

Additional observations from a re-analysis of the deposited data

How the results depend on the processing

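Counts of called members depended mostly on which wild-type arrays were used. The 10 members called with dexamethasone in wild type became 4 without the 4 arrays with pancreas transcripts (3 kept, 7 lost and Vnn1 gained), and 4 to 11 when each array was left out in turn, the 4 without wild-type dexamethasone 2. The average dexamethasone effect gave 9 members, 3 without the 4 arrays, and 7 to 10 over single left-out arrays. The knockout count of 4 became 3 without the 4 arrays and 3 to 4 over single arrays, and Cpt1a was the call that was lost. The median wild-type change of mitochondrial members was 0.11, and 0.056 with arrays centred on their median, 0.164 without the 4 arrays and 0.066 to 0.107 over single left-out arrays. That of peroxisomal members was -0.15, and -0.060 without the 4 arrays. Comparisons of genotype and the interaction gave 0 members under every alternative run. Of the single-member changes compared, 4235 stayed on their side of the threshold, 72 lost a call and 13 gained a call, and 0 of the called values changed sign. The 4235 include changes that were uncalled and stayed so, and the counts and medians above are not in this tally. Fits on the arrays of 2 groups alone were not run for the interaction and the averages, which need all groups. With a replicate block 9 members were called in wild type, 3 in the knockout and 9 in the average. Deviations from the group means had correlations of -0.54 to 0.36 over 18 same-numbered pairs of animals from different groups. Over 36 differently numbered pairs they were -0.35 to 0.40. No pairing was seen, but deviations from means of 3 animals cannot exclude one.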
